A study of Mus musculus with 4 samples.

Results

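DHX9 binding peaks that lay close to a peak on the other DNA strand were examined in mouse neural progenitor cells. A peak is a stretch called as enriched for crosslinked RNA, placed on the genome with its strand. An autosomal peak was taken when its midpoint lay within 5000 bases of the midpoint of a peak on the opposite strand. This held for 353 of 42236 autosomal peaks (0.836%), in a list of 43106 peaks in all. They formed 515 pairs of a plus-strand and a minus-strand peak, which joined into 67 loci. The peaks were chosen by their measured positions and strands, so their number, classes and distances are descriptions with no test, and nothing is read from the share.

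Neural progenitors had been derived from the mouse embryonic stem cell line WT26, which is male and feeder-independent, with the strain given as C57BL/6x129sV. The progenitors were kept in N2B27 medium with EGF and FGF2. Cells were crosslinked with ultraviolet light and RNA was pulled down by FLASH, a crosslinking and immunoprecipitation method that keeps the strand of the RNA, in 2 biological replicates with an antibody to DHX9 and 2 with IgG as control. A single peak list covered the 4 libraries, so no value per library, no depth and no replicate error could be given, and no test across samples was possible. All groups came from 1 cell line, and expression was not measured, so a gene without a called peak need not be silent. Of 10 neural progenitor markers, 5 carried a peak (Sox9, Vim, Fabp7, Slc1a3 and Ptprz1), while Nes, Sox2, Pax6, Hes5 and Msi1 had none. None of the 4 stem cell markers Pou5f1, Nanog, Zfp42 and Esrrb had a peak, and 1 of 4 neuron markers, Map2, did. Of the astrocyte and oligodendrocyte markers, 2 of 6 had one (Pdgfra and Cnp), as did 2 of 6 other markers (Col1a1 and Col3a1).

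DHX9 is a helicase that unwinds double-stranded RNA and hybrids of RNA and DNA. Double-stranded RNA forms when a transcript folds back on an inverted repeat, and it can also form when both strands of a region are transcribed. Opposite-strand transcripts arise where genes share a promoter region and point apart, where neighbouring genes point at each other, and where a noncoding RNA is made from the strand opposite a gene. Pairs were called overlapping when both peaks covered at least 1 common base. Other pairs were called divergent when the minus-strand peak lay at lower coordinates, so that the strands point away from each other, and convergent when the plus-strand peak did.

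Promoter sequences are shown for loci where the strand of the peaks switched at an annotated start, because the letters show what lies between the blocks. All are RefSeq sequences of GRCm38.p6, the 250 bases before the start, written 5′ to 3′ on the gene's strand. Capitals mark GC boxes (GGGCGG or its reverse complement CCGCCC) and TATA motifs (TATAAA or its reverse complement TTTATA). Bzw1 (plus strand, chr1:58392648-58392897) and Gm39644 (minus strand, chr1:58392544-58392793) start 355 bases apart, so their windows overlap.
Bzw1: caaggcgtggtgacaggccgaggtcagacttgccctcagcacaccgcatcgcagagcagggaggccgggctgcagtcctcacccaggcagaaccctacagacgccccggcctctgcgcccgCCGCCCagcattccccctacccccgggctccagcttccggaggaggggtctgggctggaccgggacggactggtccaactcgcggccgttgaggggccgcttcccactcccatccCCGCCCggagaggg
Gm39644: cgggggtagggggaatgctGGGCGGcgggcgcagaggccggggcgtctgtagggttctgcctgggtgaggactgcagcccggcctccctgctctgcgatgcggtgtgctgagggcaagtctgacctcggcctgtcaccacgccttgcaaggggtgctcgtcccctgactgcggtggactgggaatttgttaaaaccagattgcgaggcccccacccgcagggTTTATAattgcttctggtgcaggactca
The windows of Actr2 (minus strand, chr11:20112952-20113201) and Ccar1 (minus strand, chr10:62792369-62792618) lie between a block of minus-strand peaks in the gene and plus-strand peaks beyond its start.
Actr2: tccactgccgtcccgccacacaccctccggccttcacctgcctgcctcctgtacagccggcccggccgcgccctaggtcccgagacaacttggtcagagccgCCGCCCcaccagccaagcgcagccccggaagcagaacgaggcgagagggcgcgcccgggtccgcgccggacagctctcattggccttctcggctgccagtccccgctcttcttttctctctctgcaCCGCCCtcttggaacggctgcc
Ccar1: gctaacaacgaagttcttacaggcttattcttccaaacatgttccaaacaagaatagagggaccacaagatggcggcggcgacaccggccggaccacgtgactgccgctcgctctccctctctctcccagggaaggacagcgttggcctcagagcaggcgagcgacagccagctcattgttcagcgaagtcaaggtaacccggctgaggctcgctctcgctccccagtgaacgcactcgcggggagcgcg
The histone gene H2ac20 (minus strand, chr3:96220881-96221130) is shown because 2 opposite-strand peaks overlap next to its start.
H2ac20: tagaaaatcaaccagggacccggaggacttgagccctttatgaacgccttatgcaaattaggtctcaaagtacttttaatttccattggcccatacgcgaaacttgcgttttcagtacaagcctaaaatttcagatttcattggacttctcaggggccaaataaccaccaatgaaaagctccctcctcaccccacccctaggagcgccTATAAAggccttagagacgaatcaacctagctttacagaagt
GC content was 71.6% for Bzw1, 64.4% for Gm39644, 70.0% for Actr2, 60.0% for Ccar1 and 44.8% for H2ac20. The Bzw1 and Actr2 windows held 2 GC boxes each, the Gm39644 window held 1 GC box and 1 TATA motif, and the H2ac20 window held 1 TATA motif. The GC box of Gm39644 is the first box of the Bzw1 window read on the other strand, so it is the same site. Ccar1 had neither motif in this window. Over whole windows of 250 bases before to 50 after the start, 59.5% of the 37 windows inside the loci held a GC box, against 35.7% of all 32851 windows. A TATA motif was in 8.11% of those in the loci and 13.6% of all. Median GC content was 61.3% in the loci and 52.7% over all. The shares were not tested, and 34 of the 37 windows belonged to divergent loci. Some genes, such as Dedd and Rnf4, gave more than 1 of the 37, and some windows overlap, so bases were counted repeatedly. The full set includes promoters of genes without a peak.

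Of the 515 pairs, 22 (4.27%) overlapped, 223 (43.3%) were divergent and 270 (52.4%) convergent. This order turned with each peak's nearest partner only (48.9% divergent, 43.2% convergent) and with pairs up to 10000 bases (60.5% and 38.2%). A locus with many peaks makes many pairs. The locus at Rev3l alone gave 78 of the 223 divergent pairs (35.0%), and without it 33.2% of pairs were divergent and 61.8% convergent. Counted as loci, each by the class of its closest pair and overlapping first, 33 were divergent, 20 convergent and 14 overlapping. Convergent pairs had a median midpoint distance of 3010 bases and divergent pairs 3238, while overlapping midpoints were at most 261 bases apart. The last pair inside the limit, at Rev3l, was 5000 bases apart, and the first outside it, at Phykpl, was 5004.5. Between 4000 and 5000 bases there were 124 pairs, and between 5000 and 6000 there were 152, so the limit cut through a range that held pairs on both sides.

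**Figure D1:**
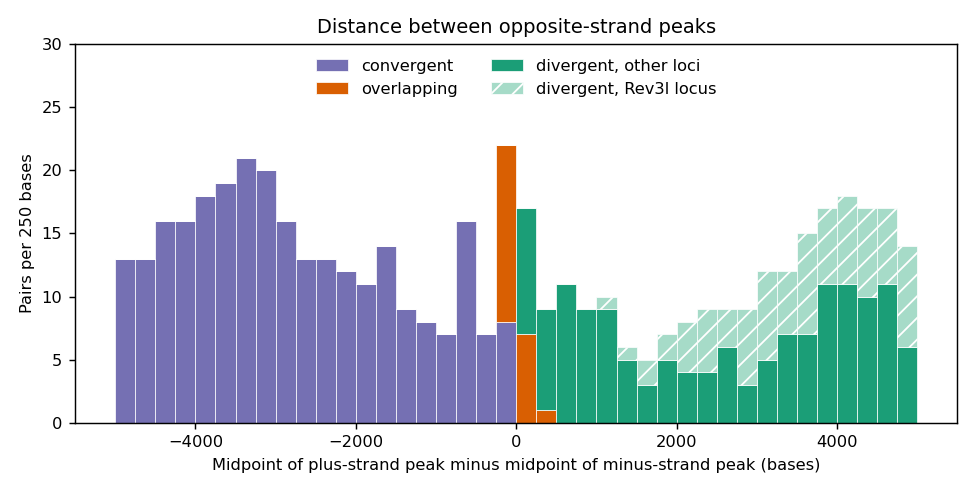
Number of opposite-strand pairs (y) by the signed distance between midpoints in bases (x), in bins of 250 bases. The 270 convergent pairs lie left of 0, the 22 overlapping pairs near 0 and the 223 divergent pairs right of 0, of which the hatched 78 come from the Rev3l locus.

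Most loci were small. The median locus had 4 of the peaks and spanned 4298 bases (88 to 9810), 23 loci were a single pair, and 9 loci had 10 or more peaks and together held 133 of the 353 (37.7%). In 47 of the 67 loci 1 strand was represented by a lone peak. The peaks were spread over 177 plus-strand and 176 minus-strand members. Chromosome 11 had the most, 83 in 11 loci (1.73% of its peaks), and chromosome 10 the highest share, 2.09% (36 of 1720). Of those 36, 22 came from the Rev3l locus, and without it the share of chromosome 10 was 0.824% and that of chromosome 3, at 1.8%, the highest. Chromosomes 12 and 14 had none among 1774 and 1153 peaks.

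Loci came in 2 layouts, told apart by how often the strand switched from peak to peak along the locus; this division was chosen after the values were seen. In 48 loci (194 peaks) it switched once, so 1 or more peaks of 1 strand were followed by 1 or more of the other. In the other 19 loci (159 peaks) it switched between 2 and 5 times, and peaks of both strands were interleaved. The 48 include the 23 loci of 2 peaks, which can switch only once, and 5 of these 23 were overlapping pairs. Peak number thus enters the division by construction (median 3 against 6), and its part in the comparisons below was not tested. The interleaved loci were held by the same gene on both strands in 16 of 19, against 17 of 48 loci with 1 switch. Their closest opposite peaks had a median distance of 174.5 bases, against 3033. Of the 27 divergent switches in loci with 1 switch, 23 had the edge of an annotated gene between the peaks, as did 11 of 16 convergent ones. In the interleaved loci this was so for 2 of 20 divergent and 2 of 20 convergent switches, whose peaks were also closer together (median 267.75 and 515.75 bases against 3423.5 and 3033). A longer interval is more likely to hold a gene edge, and the part of distance in these counts was not tested.

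**Figure D2:**
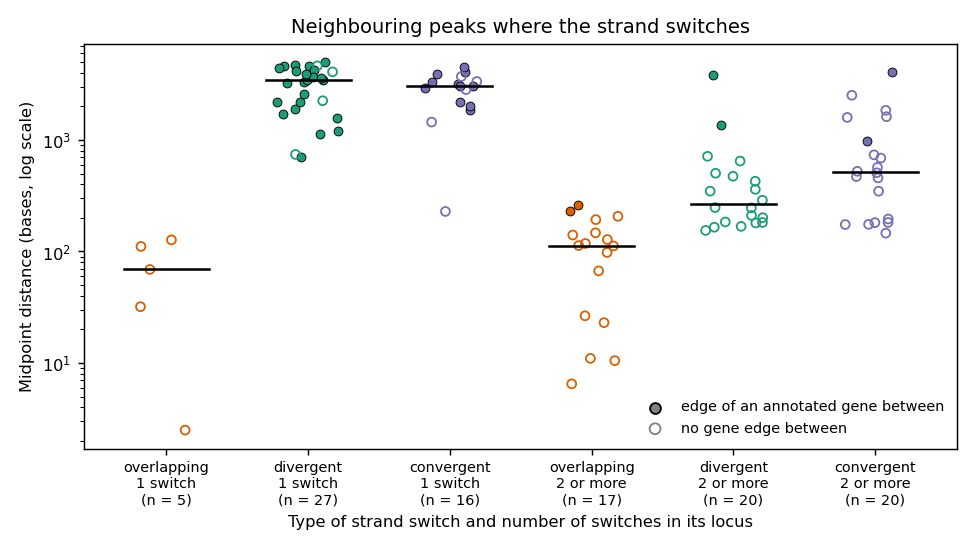
Midpoint distance in bases (y, log scale) between neighbouring peaks where the strand switches, by type of switch and number of switches in the locus (x). Filled points have the edge of an annotated gene between the peaks and bars are medians; divergent switches of loci with 1 switch sit at a median of 3423.5 bases and 23 of 27 are filled.

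Divergent loci with 1 switch often straddled gene starts. Start sites came from RefSeq's promoter table, which gave the strand for 71 of the 101 genes that held these peaks. In loci with 1 switch, 17 of 27 divergent switches had an annotated start between the peaks, against 0 of 20 in interleaved loci. Of the 17, 6 had starts on both strands. At Hnrnpa1, a splicing factor gene, and Cbx5, which encodes the heterochromatin protein HP1 alpha, starts 545 bases apart lay between 2 minus-strand peaks in Cbx5 and 3 plus-strand peaks in Hnrnpa1 (chr15:103238251-103244364). In all, Cbx5 carried 67 peaks, all minus, and Hnrnpa1 9, all plus. At Bzw1, a translation regulator gene, the only peak of the noncoding gene Gm39644 (chr1:58391347-58391502, minus) faced away from 5 of the 7 peaks of Bzw1, across the promoters printed above. The other 4 such loci were Catsper2 and Pdia3 (starts 110 bases apart), Rrnad1 and Isg20l2 (119), Fbxo11 and Gm45950 (80), and Supt6 and Sdf2 (43). Supt6 encodes a transcription elongation factor, Pdia3 a protein disulfide isomerase of the endoplasmic reticulum, and Fbxo11 a subunit of a ubiquitin ligase. The plus-strand peak of Pdia3 also lay within the span of Catsper2. By their annotated spans, Catsper2 and Pdia3, Rrnad1 and Isg20l2, and Supt6 and Sdf2 overlap. The span of Cbx5 ends at 103239904 and that of Hnrnpa1 begins at 103239943. The distances between starts thus depend on which starts are listed.

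The largest locus was divergent. At Rev3l, which encodes the catalytic subunit of DNA polymerase zeta, and the noncoding gene E130307A14Rik (chr10:39728817-39736818), 9 minus-strand peaks were followed by 13 plus-strand peaks. The nearest of each were 1134.5 bases apart. E130307A14Rik carried 14 peaks, all minus, and Rev3l 115 plus and 1 minus, the latter in the stretch where both genes overlap. Gt(ROSA)26Sor, the noncoding gene of the Rosa26 locus, had 2 minus-strand peaks beside Setd5, a chromatin regulator gene with 55 plus-strand peaks of which 3 were in the locus (chr6:113074183-113080940).

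In other divergent loci most peaks lay in a single gene, and the opposite strand had few peaks, some of them in no annotated gene. Actr2, which encodes the ARP2 subunit of the actin-nucleating ARP2/3 complex, held 6 minus-strand peaks, and 3 plus-strand peaks followed in no annotated gene (chr11:20108352-20114125). The closest were 1196.5 bases apart, on either side of the promoter printed above. Ccar1, a transcription coactivator gene, held all 7 minus-strand peaks of its locus (chr10:62788493-62792778), which were followed, beyond the start of the gene, by 1 plus-strand peak of 51 bases in no gene. At Ppp6r3, a subunit gene of protein phosphatase 6, 6 minus-strand peaks were followed by a divergent plus-strand peak of 205 bases that covered the alanine transfer RNA gene n-TAagc9 over its whole 73 bases. In the locus of 5031425E22Rik, a noncoding gene, 6 of its 39 minus-strand peaks were followed by 1 divergent plus-strand peak in Kmt2e, which encodes a SET domain protein.

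Convergent loci with 1 switch lay at gene ends in 9 of 16 cases, and 6 of these had annotated ends of both strands between the peaks. These 6 were Dcaf8 and Pea15a, Sass6 and Mfsd14a, Snhg12 and Trnau1ap, Tle2 and Tle6, Rab1a and Cep68, and 2700081O15Rik and Rtn3. Rab1a encodes a small GTPase of vesicle traffic between endoplasmic reticulum and Golgi, and 1 of its 18 plus-strand peaks faced 3 of the 14 minus-strand peaks of Cep68, a centrosome gene, 3023.5 bases away at the nearest. Rtn3, a reticulon gene that shapes the endoplasmic reticulum, had 46 minus-strand peaks of which 2 faced 2 of the 9 plus-strand peaks of 2700081O15Rik. The largest block-wise convergent locus held 4 plus-strand peaks, all those of Rnf215, and 8 of the 10 minus-strand peaks of Ccdc157 (chr11:4138477-4143437), with a gap of 1863 bases between nearest midpoints. At Flot1, a flotillin gene, 3 of 6 plus-strand peaks faced 2 of the 3 minus-strand peaks of Tubb5, a beta-tubulin gene (chr17:35831278-35837086).

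**Figure D3:**
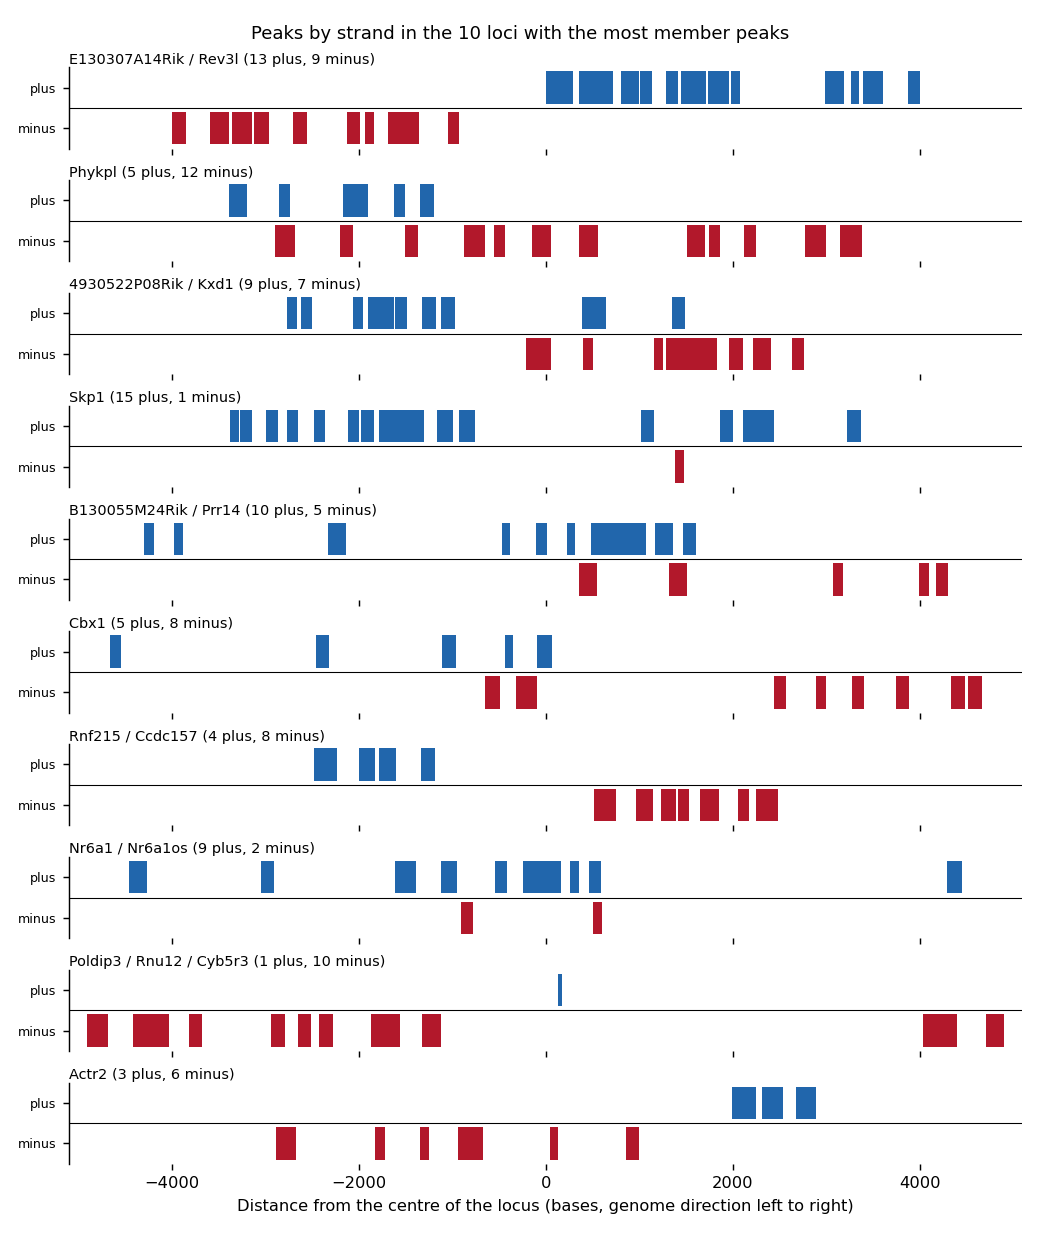
Peaks in the 10 loci with the most of them, plus-strand peaks above and minus-strand peaks below the line, by distance in bases from the centre of each locus (x). Rev3l shows 9 minus-strand peaks followed by 13 plus-strand peaks, while Phykpl, Kxd1, Prr14, Cbx1 and Nr6a1 show both strands interleaved.

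In 16 of the 19 interleaved loci a gene held peaks of both strands, in several of them with peaks in another gene as well. Phykpl, which encodes a lyase of hydroxylysine breakdown and is annotated on the plus strand, had 5 plus-strand and 12 minus-strand peaks in its locus (chr11:51587785-51594554), and 5 plus and 31 minus over the whole gene. Most peaks within its span were on the strand opposite to its annotation. In 3 pairs the peaks overlapped, by 124, 105 and 4 bases. The nearest upstream gene known to lie on the minus strand was, for these 12 peaks, Hnrnpab. It encodes a heterogeneous nuclear ribonucleoprotein and had 10 minus-strand peaks. The 12 lay between 5662 and 11721 bases past its annotated end. That end lies within the span of Phykpl, so the 31 minus-strand peaks counted there can include peaks of Hnrnpab. At Skp1, a subunit gene of SCF ubiquitin ligases, the reverse ratio held, with 15 plus-strand peaks on the gene's strand and 1 minus-strand peak of 91 bases among them (chr11:52238893-52238983), 347 bases from its nearest plus-strand neighbour.

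At Prr14, which encodes a protein that tethers heterochromatin to the nuclear lamina, and the noncoding gene B130055M24Rik, 10 plus-strand and 5 minus-strand peaks were interleaved over 8607 bases (chr7:127461118-127469724). Both genes are annotated on the plus strand, so none of the 5 minus-strand peaks had a gene of its own strand. A minus-strand peak of 194 bases overlapped a plus-strand peak on either side, by 46 and 48 bases. At Kxd1, which encodes a subunit of the BORC lysosome positioning complex, and its neighbour 4930522P08Rik there were 9 plus-strand and 7 minus-strand peaks over 5533 bases (chr8:70511409-70516941). The first 7 were all plus, 4 in 4930522P08Rik and 3 just past its end (25.5 to 527 bases), and 2 further plus-strand peaks overlapped minus-strand peaks in Kxd1 by 143 and 110 bases. The minus-strand peak of 542 bases in that gene was the longest of the 353.

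The locus downstream of Cbx1, which encodes HP1 beta, lay almost wholly outside genes. Of its 13 peaks, 1 was in Cbx1, and 4 plus-strand peaks lay 329.5 to 2702.5 bases past the end of that gene, which held 18 plus-strand peaks. The 8 minus-strand peaks lay 1127 to 6284 bases past the end of Nfe2l1, the nearest upstream gene known to lie on the minus strand, which had 0 peaks on that strand. The peaks of both strands met between 96811053 and 96811763 of chromosome 11, where 1 pair shared 2 bases. On chromosome 9, in no gene (78475199 to 78478312), 2 plus-strand peaks lay past the end of Mto1 (1813 and 2235.5 bases), a gene for transfer RNA modification in mitochondria, and 2 minus-strand peaks past the end of Eef1a1 (209 and 3188.5 bases), the elongation factor gene, which had 0 peaks on that strand.

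At Nr6a1, an orphan nuclear receptor gene on the minus strand, and its opposite-strand noncoding gene Nr6a1os, most peaks lay on the strand of the noncoding gene. There were 9 plus-strand peaks and 2 minus-strand peaks in the locus (chr2:38845936-38854847), and 12 and 2 over the whole of either gene. The minus-strand peak at chr2:38850899-38850992 overlapped a plus-strand peak by 88 bases. The microRNA genes Mir181a-2 and Mir181b-2 lie on the plus strand in the last gap of this locus, between a minus-strand and a plus-strand peak that were 3817.5 bases apart, and no peak shared a base with either hairpin. Their mature sequences from RefSeq are shown because these genes lie inside the locus on the strand with most of its peaks, with the seed (bases 2 to 8) in capitals, which the 2 5p arms share.
mmu-miR-181a-5p: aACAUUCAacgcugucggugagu
mmu-miR-181b-5p: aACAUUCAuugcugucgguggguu
mmu-miR-181a-2-3p: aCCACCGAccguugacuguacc
mmu-miR-181b-2-3p: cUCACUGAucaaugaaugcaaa
A peak did cover a microRNA hairpin at the convergent locus of Rtn3, where the plus-strand peak chr19:7422406-7422715 held all 70 bases of Mir6991 (chr19:7422573-7422642), printed with its mature arms in capitals.
Mir6991: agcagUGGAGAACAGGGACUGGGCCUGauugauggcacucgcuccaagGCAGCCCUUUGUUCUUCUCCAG

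Interleaved loci with fewer peaks ranged from short to long. In Sh3d19, 5 plus-strand peaks and 1 minus-strand peak spanned 6082 bases, with 288 bases between the nearest of opposite strands. In Rbl2, which encodes the pocket protein p130, all 5 peaks of the gene, 3 plus and 2 minus, lay within 770 bases (chr8:91110175-91110944), and the closest convergent and divergent pairs of all, 146 and 154.5 bases apart, were here. The next closest divergent pair, in Phykpl, was 165 bases apart. The 2 minus-strand peaks in Rbl2 lay 1080.5 and 1534 bases past the end of Aktip. It is the nearest upstream gene known to lie on the minus strand and had 0 peaks on that strand. Ntan1, an amidase gene of the N-degron pathway, lies on the plus strand and overlaps Pdxdc1 on the minus strand. There 5 plus-strand peaks surrounded a minus-strand peak that lay in both genes, 175 bases from the nearest. Thoc1, a subunit gene of the THO complex of messenger RNA export, showed the same order with 4 and 1, 174.5 bases apart at the nearest. Orc3, a subunit gene of the origin recognition complex, had a plus-strand peak between its 2 minus-strand peaks, 168 bases from the nearer. Where Snapc3, a gene for transcription of small nuclear RNAs, overlaps Psip1, which encodes a chromatin reader, 6 plus-strand and 2 minus-strand peaks were interleaved (chr4:83455332-83458325), and 2 pairs overlapped, by 126 and 27 bases.

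Overlapping pairs shared between 2 and 167 bases, with a median of 67.5. In 7 of the 22 the shorter peak lay wholly inside the other, and in 12 at least 50% of it was shared. In 11 pairs 1 peak lay in a gene of its own strand and the other only in genes of the opposite strand. The most bases, 167, were shared at the histone H2A gene H2ac21, where peaks at chr3:96220120-96220348 (plus) and chr3:96220140-96220306 (minus) lay over each other. The 3′ ends of H2ac21 (plus) and H2ac20 (minus) face each other, and their 771-base locus held 5 peaks, 2 plus and 3 minus, with 3 overlapping pairs. At the start of H2ac20 a plus-strand peak of 74 bases lay wholly inside a minus-strand peak of 148 bases, which shared 60 bases with the window of 250 bases before to 50 after that start, most of them after it and so not in the letters printed above. These histone genes have near-identical copies, and reads may have been placed on either, so the strand and gene of these peaks are uncertain. The same holds for Vmn2r29, a vomeronasal receptor gene of a large family, where both peaks of the gene shared 112 bases and their midpoints were 2.5 bases apart, the closest of all pairs. At Ttc19 and Ncor1, genes that overlap on opposite strands, the pair shared 92 bases, and each peak lay on the strand of 1 of the genes. Ncor1, a nuclear receptor corepressor gene, had 36 minus-strand peaks and 1 plus-strand peak over its span.

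**Figure D4:**
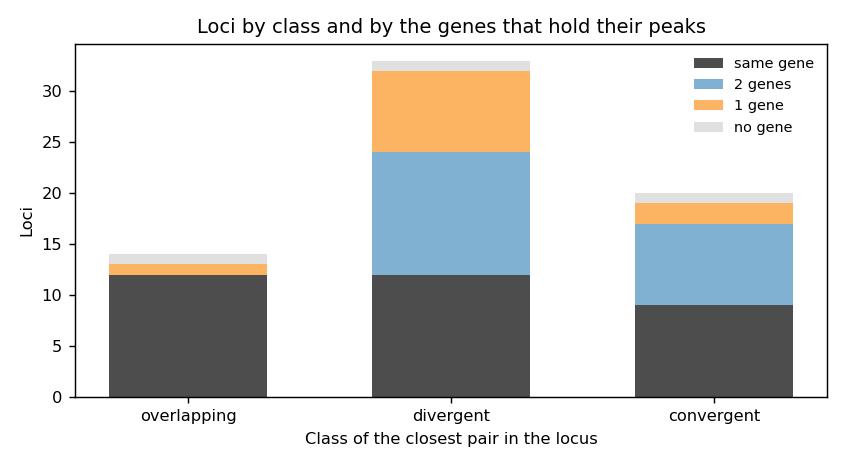
Number of loci (y) by the class of their closest pair (x), coloured by whether a gene held peaks of both strands, different genes held them, a gene held only 1 strand, or none did. In 12 of the 14 overlapping loci the same gene held both strands, against 12 of 33 divergent and 9 of 20 convergent loci.

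By gene, 208 pairs (40.4%) had both midpoints in the same gene, 203 (39.4%) in different genes, 70 (13.6%) had 1 in a gene and 34 (6.6%) none. Overlapping pairs were in the same gene in 81.8% of cases, convergent pairs in 44.8% and divergent pairs in 30.9%. With protein-coding genes only, the share in different genes was 11.7% and the share with 1 in a gene 41.2%. The 353 peaks lay in 101 genes, 76 protein-coding, 16 long noncoding and 9 of other kinds, and 40 of the 101 held them on both strands. This was 2.18% of the 4636 autosomal genes with a peak, and 1.9% of the 4008 protein-coding ones. The rule used these peaks, so nothing is read from these shares.

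Several further measures are given beside the 41883 other autosomal peaks, with no test, as peaks of a single list are not replicates. The rule used positions and strands, so measures of place and spacing need not be independent of it. The opposite-strand peaks had a median length of 142 bases (117 to 192, 25th to 75th percentile) and the others 154 (122 to 202). Their nearest peak of the same strand was 422.5 bases away at the median, against 363.5. A long noncoding gene held 17.6% against 5.93%, a protein-coding gene 74.8% against 95.5%, and no gene 11.3% against 2.3%. The 62 in long noncoding genes were concentrated in a few of them: Nr6a1os held 11, E130307A14Rik 9, Ino80dos 8, B130055M24Rik 7 and 5031425E22Rik 6. Of the 40 in no gene, 4 plus-strand and 8 minus-strand peaks were in the Cbx1 locus. The nearest annotated start was 8089.75 bases away against 19047.5, and 11.5% against 2.31% lay within 1000 bases of a start, over the 348 and 40551 peaks whose chromosomes are in the table of starts. That table covers 27025 of 49997 genes, so a nearer start can be missing. It has none for Rev3l or E130307A14Rik, and the peaks of their locus were counted as 115209 to 123073 bases from a start. Only genes of the opposite strand held 35 of the 353 (9.92%) and 126 of the others (0.301%). This last measure depends directly on the rule, which asked for both strands. Of the 35, 12 were in the Phykpl locus.

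Of the 353, 75 lay in no gene (40) or only in genes of the opposite strand (35). For each of these, the nearest upstream gene known to lie on the same strand was looked up. It ended a median of 8978.5 bases before the peak, against 16601.75 for 1080 other such peaks. Of the 75, 22 (29.3%) lay within 10 kb of the end of a gene with peaks on that strand, against 34.7% of the 1080. The 75 came from 33 loci, with 12 in the Phykpl locus and 4 plus-strand and 8 minus-strand peaks in the Cbx1 locus. The 22 include those 4 and most of those 12.

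Small RNA genes shared a base with 11 of the 353 (3.12%) and 206 of the others (0.492%). They were 5 transfer RNA genes at 2 loci and n-TAagc9, the genes Rnu12 and Rnu3a, Snord99 in Snhg12, the Y RNA gene Rny3 and Mir6991. Rnu12, the U12 RNA of the minor spliceosome, was a plus-strand peak of 45 bases between 8 minus-strand peaks in Poldip3 and 2 in Cyb5r3 (chr15:83144724-83154533). On chromosome 2, 2 minus-strand peaks and 1 plus-strand peak lay within 2623 bases over 3 histidine transfer RNA genes, covering all 72 bases of n-THgtg4, 18 bases of n-THgtg3 and 17 of n-THgtg5. These genes exist in many copies, so the place and strand of such reads are uncertain.

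Few genes of the lists examined held such peaks. Of the chromatin regulators, 2 of the 21 with a peak did, among them Setd5, and of the splicing and RNA processing genes 1 of 28 (Hnrnpa1). Of the list of antisense and divergent noncoding genes, 1 of 14 did, Snhg12, a host of small nucleolar RNAs, whose only peak covered Snord99. None of the 13 neural progenitor genes, 11 double-stranded RNA binding and editing genes or 5 markers of other cell types with a peak held one. Over all genes with a peak the share was 2.18%, and with counts this small nothing particular is read from the lists.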

How the data were processed

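FLASH libraries (2 with DHX9 antibody, 2 with IgG) were grouped by title. The authors deposited 1 peak list; its unit is another one than a count or score: genome positions with a strand, per the file itself, which names PEAKachu as the caller. The submitters' processing notes name Bowtie2 2.2.6 and 2 builds, mm10 and hg19. Settings and threshold of the caller, and how multi-mapping reads were treated, are not given in the sources used here. Random tags served to merge PCR duplicates, per the labels' protocols. Positions were read as mm10 and matched to RefSeq genes of GRCm38.p6. A gene held a peak when its span held the midpoint. Gene strand and start sites came from RefSeq's promoter table (27025 of 49997 genes, none on chromosome 18). Pairs, loci and shares were computed with Python 3.11.15, pandas 2.3.3 and networkx 3.6.1, and the pairing was tested on simulated peaks. The members and lists were chosen with earlier results of these data known.

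Named were the 6 loci with the most peaks in each class, the 8 overlapping pairs with the most shared bases, the 5 closest divergent and convergent pairs, the pairs at the distance limit, and up to 4 genes of each list. Other genes (those with starts or ends between the peaks, small RNA genes, and Cbx5, Sh3d19, Hnrnpab, Nfe2l1, Mto1, Eef1a1, Setd5 and others near them) were chosen after their values were seen. Alternatives were other distances (1000, 2500 and 10000 bases), no peak shorter than the median, merging within 50 bases, edge distance, nearest partners, stricter overlap, any overlap with a gene, protein-coding genes only and loci joined within 10000 bases. No test was run. Results for 1 gene are not reported here.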

Additional observations from a re-analysis of the deposited data

Results flagged for a closer look

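The autosomal comparison left out the mitochondrial genome, where all 52 peaks had an opposite-strand peak within 5 kb, in 309 pairs, of which 31 overlapped, 142 were divergent and 136 convergent. These peaks, 22 plus and 30 minus, lay within 16298 bases, so that an opposite-strand peak within 5 kb is close to given by the size of this genome, and the count is not comparable with that of the autosomes. The X chromosome had 0 of 771 peaks and the Y chromosome 0 of 41 with such a neighbour. The IgG level at these positions was not analysed here.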

How the results depend on the processing

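No paired analysis was possible because the 4 libraries share a single peak list; no replicate could be left out for the same reason. Of 102 values under the alternatives, 59 stayed within 1.5 times the main count or inside the main share's 95% binomial interval (pairs share peaks, so this interval is too narrow), and 43 moved. Other distances change the selection by construction. Within 1000 bases there were 109 peaks, with pairs 22.4% overlapping, 38.8% divergent and 38.8% convergent, 83.7% in the same gene, 5.1% in 2 genes and 3.06% in 1 gene, and loci 53.8% overlapping, 26.9% divergent and 19.2% convergent. Within 2500 bases there were 182 peaks, with 10.5% of pairs and 35.9% of loci overlapping, and 67.6% of pairs in the same gene, 17.1% in 2 and 9.05% in 1. Within 10000 bases there were 974 peaks, 1.29% of pairs and 10.2% of loci overlapping, 60.5% of pairs divergent and 38.2% convergent, 19.6% in the same gene, 63.1% in 2 and 2.4% in none. Divergent pairs thus outnumbered convergent ones at 10000 bases, and also with nearest partners only (48.9% against 43.2%, with 7.91% overlapping, 49.3% in the same gene and 30.6% in 2), but not in the main count. Leaving out peaks shorter than the median kept 84, with 25.8% of pairs in the same gene, 58.8% in 2 and 2.06% in none. Merging gave 45.1% in the same gene and 32.4% in 2. An overlap of at least 50% of the shorter peak left 2.33% overlapping. Any overlap with a gene left 10.1% in 1 gene, and protein-coding genes only gave 11.7% in 2, 41.2% in 1 and 9.51% in none. Without the Rev3l locus, chosen after seeing the data, 33.2% of pairs were divergent, 61.8% convergent and 31.6% in 2 genes. For the shares that moved under merging, overlap, partner and gene settings the cause was not tested. Edge distance and joining loci within 10000 bases moved none of the values computed for them. Depth is unknown, so how many opposite-strand peaks went uncalled is not known.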
